A study of Mus musculus with 8 samples.

Results

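The genes described here are 5 CC chemokine ligand genes, Ccl3, Ccl4, Ccl5, Ccl9 and Ccl17, of the 27998 genes in the count table of bone marrow KL (c-Kit+ Lin-) cells. They were chosen from values of these same cells: all 5 for how their levels differed among progenitor states, and Ccl5 also for its difference between housing groups in long-term stem cells. Their levels across progenitor states, and every Ccl5 value, are therefore given as a description with no test. The housing comparison was tested for the other 4 genes.

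KL cells came from female C57BL/6 (B6) mice of 3 to 4 months. SPF mice stayed in a specific-pathogen-free facility, and CVT mice were moved out of it to a conventional facility, where they shared cages for 1 month with mice born there (CVB). No group carried an engineered allele or received a drug. By the sample titles each group had 10 mice, whose sorted cells were combined into 4 pools of 2 or 3 mice. The study's figure legend for this experiment states fewer mice a group, also in 4 pools. The pool is therefore the replicate (n = 4 pools a group) and no value belongs to a single mouse. KL cells carry CD117 (c-Kit) and lack the CD3, CD4, CD8, CD45R, CD11b, TER119 and GR1 antigens, a gate that keeps stem and progenitor cells and is meant to remove mature blood cells.

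Chemokines are small secreted proteins that guide leukocytes along concentration gradients, and the CC family is named for a pair of adjacent cysteines near the start of the mature protein. Ccl3 and Ccl4 are the mouse macrophage inflammatory proteins alpha and beta. Ccl3 binds the receptor Ccr1 and was described long ago as an inhibitor of stem and progenitor cell proliferation. Ccl5 (RANTES) is made by activated T cells and natural killer cells and binds Ccr1 and Ccr3. Ccl9 is a myeloid ligand of Ccr1. Ccl17 is made by dendritic cells and attracts Ccr4-bearing T cells.

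Sequence around the paired cysteines is shown for 4 of the genes because the ligands are relatives, and reads of near-identical copies could be assigned to the wrong gene. Each line gives 30 bases of the coding strand, 5′ to 3′, from the GENCODE transcripts of build GRCm38, with the paired cysteine codons in capitals.
Ccl4: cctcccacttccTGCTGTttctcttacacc
Ccl5: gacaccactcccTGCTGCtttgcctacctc
Ccl9: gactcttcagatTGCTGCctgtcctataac
Ccl17: gtaggccgagagTGCTGCctggattacttc
The stretches lie at chr11:83663470-83663499 (plus strand) for Ccl4, chr11:83529230-83529259 (minus strand) for Ccl5, chr11:83575914-83575943 (minus strand) for Ccl9 and chr8:94811200-94811229 (plus strand) for Ccl17. The Ccl9 stretch is in exon 3 of 4 and each of the others is in exon 2 of 3. Ccl4 and Ccl5 were the most alike of these, with 19 of 30 bases identical, and Ccl4 and Ccl17 the least, with 12 of 30. The longest identical run between the Ccl3 and Ccl4 transcripts was 9 bases. It was 13 bases between Ccl3 and Ccl5, and 25 bases between Ccl9 and its neighbour Ccl6, all shorter than the sequenced reads. Ccl5, Ccl9, Ccl6, Ccl3 and Ccl4 are neighbours on chromosome 11, at 83525778-83530518, 83572919-83578636, 83587882-83593087, 83647844-83649355 and 83662584-83664683. Ccl17 lies on chromosome 8 at 94810453-94812036, beside Ccl22 at 94745590-94751699. The processing notes name build mm9, so these coordinates, taken by gene symbol, are of another build than the counts.

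The table held 29891 cells, 12331 from SPF and 17560 from CVT pools, with 1888 to 4845 cells and 19041749 to 59812346 UMIs (counted transcript molecules) in a pool and a median of 7530 to 12772 UMIs per cell. A set of 522 barcodes occurred in more than 1 pool, in 1048 cells or 3.51% of all, and these cells held 3.13% to 4.69% of each gene's UMIs. Clustering without the chemokine genes gave 33 clusters, which were grouped by marker genes into classes named for the progenitor they resembled: LTHSC-like (long-term stem cell, 1040 cells), MPP-like (multipotent progenitor, 3057), LMPP-like (lymphoid-primed multipotent progenitor, 3446), erythroid MEP-like (5513), megakaryocyte-like (2753), GMP-like (granulocyte-monocyte progenitor, 3750), late granulocyte-like (1592), monocyte-like (2112), basophil and mast cell-like (960), and small dendritic-like (79), B-like (168) and T and NK-like (50) groups. No cluster met the marker rule for common myeloid progenitors, and 5371 cells in 6 clusters stayed unnamed. Because these names were rebuilt from markers, they need not match those of the study.

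Ccl9 was by far the most widely detected of the ligands. It had 64051 UMIs in 13950 cells (46.7%), or 191 CPM (UMIs of the gene per 1000000 UMIs of the same cells) over all cells. Ccl3 followed with 7528 UMIs in 3623 cells (12.1%), Ccl4 with 6203 UMIs in 3412 cells (11.4%), Ccl17 with 1998 UMIs in 1691 cells (5.66%) and Ccl5 with 4440 UMIs in 796 cells (2.66%). UMIs tag the transcript end, so these levels do not scale with transcript length, although genes may differ in how efficiently they are captured. With each cell thinned to 2759 UMIs, the depth of the shallowest cell, the shares were 27.9% for Ccl9, 5.21% for Ccl3, 4.97% for Ccl4, 2.36% for Ccl17 and 1.12% for Ccl5. The ligands also differed in how their transcripts were spread. The highest cells that together held 50% of a gene's UMIs numbered 3035 for Ccl9, 742 for Ccl3, 717 for Ccl4, 692 for Ccl17 and 31 for Ccl5.

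**Figure D1:**
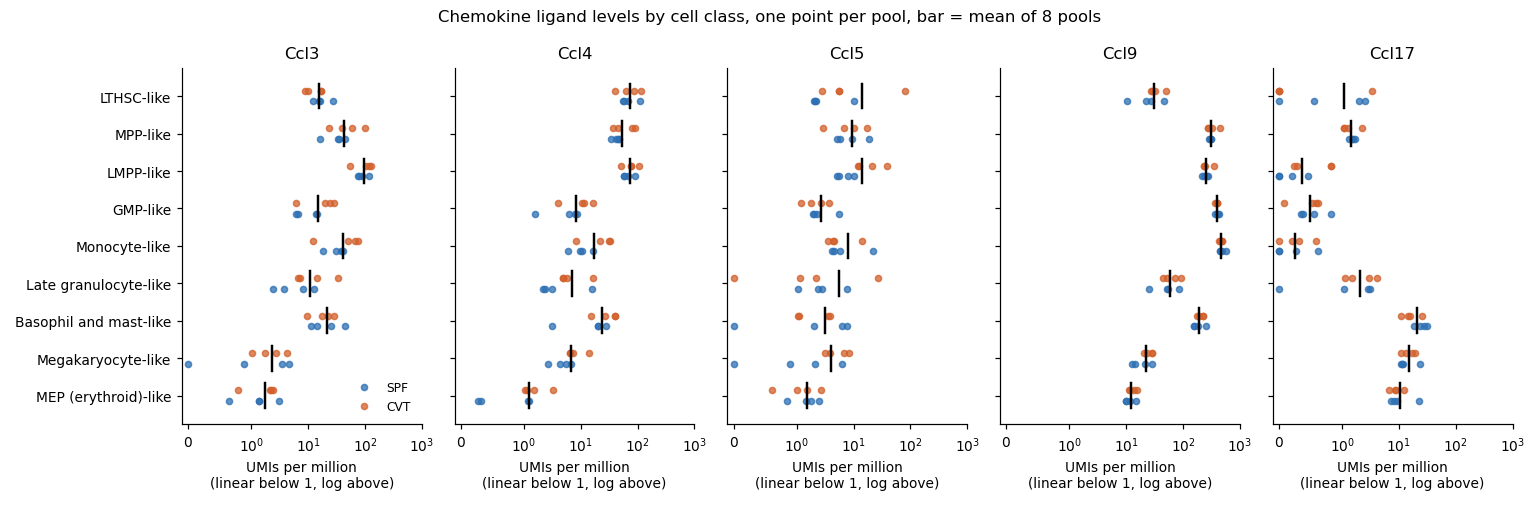
Level of each ligand gene (horizontal axis, CPM, linear below 1 and log above) in 9 progenitor classes; points are the 8 pools, coloured by SPF or CVT, and bars are means over pools. Ccl9 was highest in monocyte-like cells (mean 474), Ccl3 in LMPP-like cells (95.5), Ccl4 in LTHSC-like and LMPP-like cells (74.4 and 72.7) and Ccl17 in basophil and mast cell-like cells (21.0).

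Ccl3 was highest in lymphoid-primed progenitors. In LMPP-like cells it reached 95.5 ± 25.5 CPM (mean ± SD, n = 8 pools), above MPP-like cells (43.6 ± 25.7) in 8 of 8 pools. The SPF pools 1, 2, 7 and 8 had 75.2, 116, 79.1 and 88.7 CPM in LMPP-like cells, and the CVT pools 3, 4, 5 and 6 had 106, 118, 127 and 53.6. The lowest and the highest of the 8 values were both from CVT pools, so the groups overlapped. Monocyte-like cells (41.3 ± 21.9) came next and stood above MPP-like cells in 3 of 8 pools, so these neighbours did not differ beyond their spread. Basophil and mast cell-like (21.4 ± 11.2), LTHSC-like (15.4 ± 5.77) and GMP-like cells (14.9 ± 8.63) also overlapped one another. The gene was lowest in megakaryocyte-like (2.33 ± 1.67) and erythroid MEP-like cells (1.76 ± 0.841). Of the LMPP-like clusters, cluster 11, which had Ccl3 among its leading genes, and cluster 7 had the gene in 39.3% and 37.2% of cells, against 17.8% in cluster 13.

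Ccl4 shared the LMPP-like level of Ccl3 and was as high in the most primitive cells. It averaged 74.4 ± 26.6 CPM in LTHSC-like cells, 72.7 ± 18.3 in LMPP-like cells and 52.7 ± 20.7 in MPP-like cells (n = 8 pools). LTHSC-like cells were above LMPP-like cells in 4 of 8 pools, so their order was not settled, and LMPP-like cells were above MPP-like cells in 7 of 8. LTHSC-like cells had 54.2, 67.3, 110 and 58.4 CPM in SPF pools 1, 2, 7 and 8 and 87.7, 40.4, 114 and 63.6 in CVT pools 3, 4, 5 and 6. The groups overlapped, with 1 high pool in each, SPF pool 7 and CVT pool 5. Basophil and mast cell-like (23.9 ± 12.3), monocyte-like (17.2 ± 10.5), GMP-like (8.32 ± 4.70), late granulocyte-like (6.95 ± 5.91), megakaryocyte-like (6.69 ± 3.27) and erythroid MEP-like cells (1.24 ± 0.922) followed. Small groups were not ranked. Over all their cells, T and NK-like cells had 114 CPM of Ccl4 on 35 UMIs. Dendritic-like cells had 84.8 CPM on 39 UMIs. Their means over pools were 64.8 ± 111 and 70.1 ± 99.9.

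The balance of Ccl3 and Ccl4 differed in direction between LTHSC-like cells and the LMPP-like, GMP-like and monocyte-like classes. LTHSC-like cells held 450 Ccl4 and 100 Ccl3 UMIs, a ratio of 4.50 that ranged from 2.46 to 9.17 over the pools, and Ccl4 was the higher in 8 of 8 pools. MPP-like cells were near balance, with a ratio of 1.18 and Ccl4 higher in 6 of 8 pools. Within them, cluster 3, led by the stem cell regulator Hlf, had 827 Ccl4 against 601 Ccl3 UMIs, and cluster 6 had 442 against 473. In LMPP-like cells Ccl4 was the lower in 8 of 8 pools (ratio 0.765, range 0.650 to 0.954), and the ratio was 0.425 in monocyte-like and 0.548 in GMP-like cells. Ccl4 was above Ccl3 in 0 of 8 pools in both. Other later classes had more Ccl4 than Ccl3. Basophil and mast cell-like cells held 175 Ccl4 and 130 Ccl3 UMIs (ratio 1.35, Ccl4 higher in 6 of 8 pools). Megakaryocyte-like cells held 175 and 66. Comparing this ratio among classes does not depend on how well either transcript is captured. With clustering at a resolution of 1, the LTHSC-like class grew to 2931 cells, and its means were 74.8 CPM for Ccl4 and 41.8 CPM for Ccl3, a smaller excess in the same direction.

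**Figure D2:**
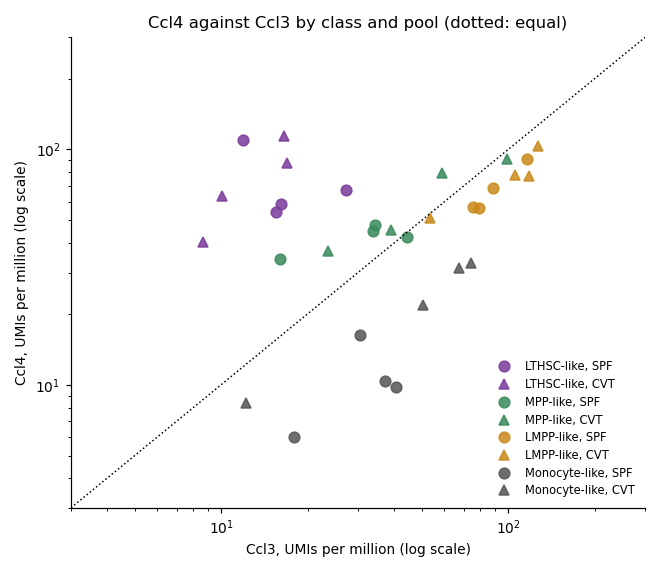
Ccl4 level (vertical) against Ccl3 level (horizontal), both in CPM on log axes, with 1 point for each pool and class (circles SPF, triangles CVT) in LTHSC-like, MPP-like, LMPP-like and monocyte-like cells. All 8 LTHSC-like points lie above the dotted line of equal levels, and all 8 LMPP-like and 8 monocyte-like points lie below it.

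The same cells often held both transcripts. Among LMPP-like cells, Ccl4 was detected in 40.2% of cells with a Ccl3 UMI and in 24.9% of cells without one, or 25.4% against 12.6% at the thinned depth. In MPP-like cells the shares were 39.0% and 19.5% (27.2% and 9.75% thinned), and in monocyte-like cells 22.8% and 7.55% (12.2% and 3.28% thinned). The difference remained after thinning in these classes, although cells of a class still differ in state. Over all KL cells, by contrast, Ccl17 was found in 1.49% of Ccl3-positive cells and 6.23% of Ccl3-negative cells. It was in 2.11% of Ccl9-positive and 8.76% of Ccl9-negative cells (0.540% and 3.06% thinned). Within classes these contrasts were smaller. For Ccl3 the shares were 11.6% and 12.4% in erythroid MEP-like cells and 8.62% and 12.4% in basophil and mast cell-like cells. For Ccl9 they were 8.57% and 13.2%, and 7.77% and 15.3%, in the same classes.

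Ccl9 followed the myeloid branch. Monocyte-like cells had 474 ± 48.1 CPM, GMP-like cells 394 ± 21.7, MPP-like cells 313 ± 54.5, LMPP-like cells 257 ± 44.0 and basophil and mast cell-like cells 195 ± 34.8 (mean ± SD, n = 8 pools). Each step of this order held in 8 of 8 pools, except that GMP-like cells were above MPP-like cells in 7 of 8. The order depended on where the class borders fell: at a clustering resolution of 1, MPP-like cells were highest (482 CPM), ahead of GMP-like (331) and monocyte-like cells (310), and LTHSC-like cells, then a larger class, had 148 CPM. At the main resolution, late granulocyte-like (59.5 ± 21.8), LTHSC-like (30.7 ± 13), megakaryocyte-like (22.2 ± 6.41) and erythroid MEP-like cells (12.3 ± 2.11) had far less. In monocyte-like cells the SPF pools 1, 2, 7 and 8 had 581, 450, 489 and 444 CPM and the CVT pools 3, 4, 5 and 6 had 438, 483, 476 and 434. These values overlapped, and SPF pool 1 stood highest. At the thinned depth, 66.6% of monocyte-like, 61.6% of GMP-like and 7.21% of LTHSC-like cells had a Ccl9 UMI. The gene split the MPP-like class, with 78.2% of cells positive in cluster 6, where Ccl9 was among the leading genes, against 48.3% in cluster 3.

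Droplets also take up free RNA, so the committed erythroid cluster 16, a cell type not known to make these ligands, served as a reference. Its median depth was 29615 UMIs, and 25.6% of its cells had a Ccl9 UMI, 4.86% a Ccl3 UMI, 2.87% a Ccl4 UMI and 1.10% a Ccl17 UMI. At the thinned depth these shares were 3.20%, 0.442%, 0.332% and 0.110%. Over all erythroid MEP-like cells, which include cluster 16, the thinned shares were 4.06% for Ccl9, 0.435% for Ccl3 and 0.490% for Ccl4. These were near the shares of cluster 16 and are not read as expression. The thinned Ccl17 share of the class was 4.21%, against 0.110% in cluster 16. The part of free RNA in the shares of this class was not tested. Free RNA need not scale with a cell's own depth, so thinning may understate it in shallow cells. As counted, cluster 16 had 0.306 Ccl9 UMIs per cell, above LTHSC-like (0.197) and megakaryocyte-like cells (0.208). The part of free RNA in the Ccl9 levels of those classes was not tested.

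The sequence upstream of Ccl9 is shown because its level tracked the myeloid classes. The 250 bases before the RefSeq start (GRCm38.p6, chr11:83578637-83578886, minus strand, written 5′ to 3′ on the gene's strand) carry in capitals each match to the motifs searched.
Ccl9: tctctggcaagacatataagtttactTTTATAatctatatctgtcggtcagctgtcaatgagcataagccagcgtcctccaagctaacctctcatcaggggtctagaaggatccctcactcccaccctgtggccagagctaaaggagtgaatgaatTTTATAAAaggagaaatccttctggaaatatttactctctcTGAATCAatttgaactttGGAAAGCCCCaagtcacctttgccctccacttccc
The search covered 6 motifs on both strands. For GATA factors, which drive erythroid and mast cell genes, the letters were GATAA. For AP-1, the dimer of Fos and Jun proteins, they were TGANTCA, with any base at N. For C/EBP, the family of the granulocyte-monocyte factor, the search used TTGCNNAA. For PU.1, a factor of myeloid and lymphoid progenitors, it used GAGGAAG. For the start of transcription itself it used TATAAA, and the last motif was the NF-kB consensus. Ccl9 held 1 AP-1 match 53 bases before the start, 1 NF-kB match on the minus strand 35 bases before it, and 3 TATA matches at 92, 94 and 224 bases, of which those at 92 and 94 overlap. An AP-1 match occurred in 6.75% of 32851 promoter windows of the same length, an NF-kB match in 1.41% and a TATA match in 12.4%. No C/EBP match was found in this window, while such a match occurred in 9.56% of windows. The Ccl3 window (chr11:83649379-83649628, minus strand) held none of the 6 motifs. A match is a string of letters and was not tested for binding.

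Ccl17 had a pattern unlike the other ligands. It was found in Gata2-expressing and early erythroid cells, and was near 0 where Ccl3 and Ccl9 were high. Among named classes it was highest in basophil and mast cell-like cells (21.0 ± 7.13 CPM), followed by megakaryocyte-like (14.8 ± 4.57) and erythroid MEP-like cells (10.4 ± 5.07). Basophil and mast cell-like cells exceeded megakaryocyte-like cells in 6 of 8 pools, and these exceeded erythroid MEP-like cells in 7 of 8. At a clustering resolution of 1 the first 2 classes were close, with megakaryocyte-like cells at 14.85 CPM and basophil and mast cell-like cells at 14.34. Late granulocyte-like (2.08 ± 1.35), MPP-like (1.46 ± 0.382), LTHSC-like (1.06 ± 1.37), GMP-like (0.491 ± 0.221), LMPP-like (0.358 ± 0.328) and monocyte-like cells (0.250 ± 0.250) had little. Basophil and mast cell-like cells had 31.3, 23.6, 27.8 and 18.7 CPM in SPF pools 1, 2, 7 and 8 and 25.3, 14.6, 10.7 and 15.9 in CVT pools 3, 4, 5 and 6. The groups overlapped in this class.

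Most Ccl17 UMIs came from 2 clusters. Cluster 0, an unnamed group of 2776 cells with Gata2 and Apoe, had 36.5 CPM in total and 26.9% of all Ccl17 UMIs. Its pools were close together, at 32.7, 41.4, 31.7 and 33.8 CPM in SPF pools 1, 2, 7 and 8 and 35.3, 34.3, 40.4 and 39.3 in CVT pools 3, 4, 5 and 6. Cluster 1, the first of the erythroid MEP-like clusters, had 27.1 CPM and 29.5% of the UMIs. Ccl17 was lower in clusters with more erythroid transcripts. In clusters 0, 1, 10, 15 and 16, in the order of their Tfrc (transferrin receptor) level, Ccl17 was at 36.5, 27.1, 6.64, 3.60 and 0.389 CPM. The transcription factor Gata2, which erythroid cells lose as they mature, went the same way with 376, 185, 46.4, 39.2 and 12.9 CPM. From the first to the last of these clusters Ermap, an erythroid membrane protein gene, went from 12.4 to 225 CPM and Tfrc from 8.64 to 98.6 CPM. Gata1, the partner of Gata2 in this lineage, stayed between 98.5 and 117 CPM. The remaining erythroid MEP-like cluster, number 27 with 137 cells, was left out of this order and departs from it. It had more Tfrc (227 CPM) than cluster 16, but also more Ccl17 (1.73 CPM) and more Gata2 (19.1 CPM). All of these clusters come from the same libraries and carry no test.

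**Figure D3:**
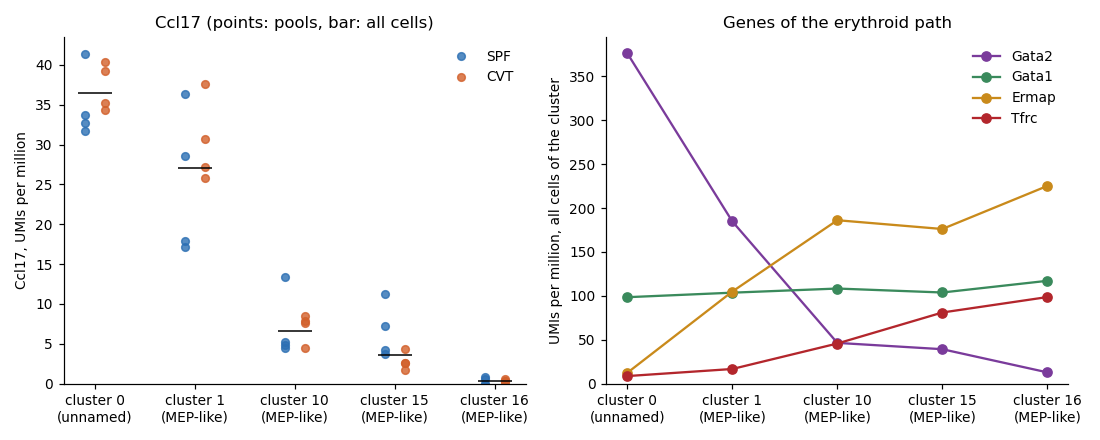
Left, Ccl17 (CPM) in clusters 0, 1, 10, 15 and 16, with points for the SPF and CVT pools and a bar for all cells of the cluster. Right, Gata2, Gata1, Ermap and Tfrc (CPM, all cells) in the same clusters. Among the clusters shown, Ccl17 and Gata2 are highest in cluster 0 and lowest in cluster 16, and Gata1 stays between 98.5 and 117. Tfrc is highest in cluster 16 of those shown. The erythroid MEP-like cluster 27, with more Tfrc (227), is not shown.

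Ccl17 went the same way as Gata2 in the clusters ordered by Tfrc above, but not over all clusters. LTHSC-like cluster 12 had 120.5 CPM of Gata2 and 0.977 CPM of Ccl17. Erythroid MEP-like cluster 15 had less Gata2 (39.2 CPM) and more Ccl17 (3.60 CPM). Whether GATA factors act on Ccl17 was not tested. The bases upstream of Ccl17 are shown because of the pattern in the clusters ordered by Tfrc. They run over 250 bases before the RefSeq start (GRCm38.p6, chr8:94810203-94810452, plus strand), with the GATA matches in capitals.
Ccl17: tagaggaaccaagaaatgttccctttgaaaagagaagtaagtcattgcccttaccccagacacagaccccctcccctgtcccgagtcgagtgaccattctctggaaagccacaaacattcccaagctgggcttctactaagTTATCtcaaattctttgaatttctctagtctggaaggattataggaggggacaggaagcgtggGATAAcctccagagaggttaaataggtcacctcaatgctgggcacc
There were 2 matches, GATAA at 46 bases and its reverse complement at 109 bases before the start, and 22.6% of the promoter windows held at least 1. No other motif of the 6 matched. In the dendritic-like cluster, led by Siglech, Ly6d and Cd7 and with a median of 4634 UMIs, 0 of 79 cells had a Ccl17 UMI, which allows a share of cells with a UMI of up to 3.80%. These are genes of plasmacytoid cells, so other dendritic cells were not examined. Its neighbour Ccl22, the other ligand of Ccr4, had 0 UMIs in the table, and Ccr4 itself had 1.

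Ccl5 transcripts sat in few cells. The 88 cells with at least 10 Ccl5 UMIs held 78.5% of them, with up to 141 UMIs in 1 cell. Of these cells, 34 were in the T and NK-like cluster and held 34.7% of all Ccl5 UMIs, and all 34 had a UMI of a T or NK marker gene. The sort removed cells with CD3, CD4 or CD8 and used no NK cell antigen. Another 27 were in the unnamed cluster 29 and held 28.3%, and 22.2% of them had such a marker. Ccl5 was among the leading genes of cluster 29. The other 27 high cells were spread over progenitor classes, with 689 UMIs (15.5%), and 22 of the 27 had no T or NK marker UMI. Of those 27 cells, 16 came from CVT and 11 from SPF pools, and 10 were LMPP-like. T or NK markers were detected in 51.1% of the cells with at least 10 Ccl5 UMIs and in 6.64% of all other cells. Of the 45 high cells with a marker, 34 were in the T and NK-like cluster. That cluster was named from the same 7 markers, so its full share and most of this contrast restate the name.

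**Figure D4:**
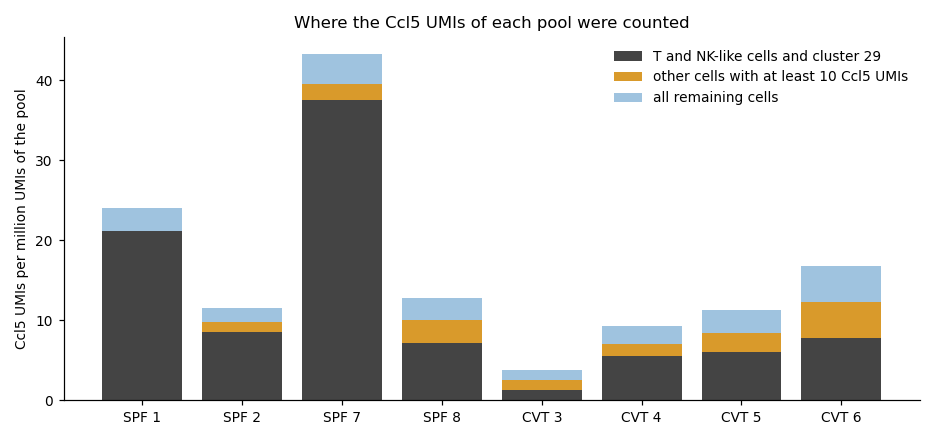
Ccl5 level of all KL cells in each pool (CPM), split into T and NK-like cells with cluster 29, other cells with at least 10 Ccl5 UMIs, and all remaining cells. The T and NK-like and cluster 29 part ranges from 1.32 in CVT pool 3 to 37.6 in SPF pool 7, and the remaining cells give 1.32 to 4.46.

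The Ccl5 level of KL cells followed these rare cells. SPF pools 1, 2, 7 and 8 had 24.0, 11.5, 43.3 and 12.7 CPM, and CVT pools 3, 4, 5 and 6 had 3.79, 9.26, 11.3 and 16.8. The T and NK-like cells and cluster 29 supplied 21.2, 8.55, 37.6 and 7.15 CPM of the SPF values and 1.32, 5.55, 6.06 and 7.76 CPM of the CVT values. The 2 highest pools, both SPF, were thus high in these cells. The remaining cells, without any high cell, gave 1.74 to 3.68 CPM in SPF and 1.32 to 4.46 CPM in CVT pools, which overlapped.

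In LTHSC-like cells Ccl5 had 10.3, 2.10, 1.99 and 2.23 CPM in SPF pools 1, 2, 7 and 8 and 2.83, 80.7, 5.52 and 5.58 in CVT pools 3, 4, 5 and 6. The value of CVT pool 4 was 1 cell with 28 UMIs, and that of SPF pool 1 rested on 4 UMIs. With the larger LTHSC-like class at resolution 1, the values were 6.93, 14.6, 6.23 and 7.92 in SPF and 18.3, 19.7, 8.49 and 54.1 in CVT pools, which still overlapped. In LMPP-like cells the SPF pools had 5.10, 5.53, 7.95 and 10.3 CPM and the CVT pools 11.9, 21.3, 12.4 and 38.4. Each CVT pool was above each SPF pool, with a log2 fold change of 1.52 in the fit described for the other ligands. The highest cell held 26, 62, 20 and 73 UMIs in CVT pools 3, 4, 5 and 6 and 5, 10, 6 and 11 in SPF pools 1, 2, 7 and 8. Dropping the highest cell in every pool gave a log2 fold change of 0.82, and with a filter on mitochondrial share and gene number it was 0.50. T and NK markers moved with Ccl5 only in part, as given above, and their part in the LMPP-like values was not tested.

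Genes whose levels over the 33 clusters were most like those of each ligand were ranked among 12704 genes by Pearson's r of log2 levels, a description in which all points share the same 8 libraries. Ccl3 went with 1700025G04Rik (0.89), Pou2f2, a lymphoid transcription factor gene (0.86), and Ccl4 (0.83). Ccl4 went with Hpgds, a prostaglandin D synthase gene (0.90), the adhesion molecule gene Icam1 (0.90) and Rapgef4 (0.90). Ccl9 went with Cebpa, the granulocyte-monocyte transcription factor gene (0.92), Emb (0.90) and Tmem150b (0.90). Ccl17 went with the lectin receptor gene Clec4d (0.94), the sialyltransferase gene St8sia6 (0.94) and Parm1 (0.93). Ccl5 went with the T cell genes Thy1 (0.97), Txk (0.96) and Cd247 (0.96). Among the ligands themselves, r was 0.74 for Ccl3 with Ccl9, -0.44 for Ccl3 with Ccl17 and near 0 for Ccl5 with Ccl9.

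Housing was compared on UMI sums of all KL cells in each pool, to ask whether co-housing moved the ligands in the compartment as a whole. A KL sum moves both with the number of cells of a class and with the transcripts in each, which cannot be told apart in it. None of the 4 tested ligands passed the test between CVT and SPF mice. Ccl3 had 13.2, 24.0, 18.9 and 21.9 CPM in SPF pools 1, 2, 7 and 8 and 21.5, 30.03, 30.6 and 10.2 in CVT pools 3, 4, 5 and 6. CVT pool 6 was the lowest of all 8 and CVT pool 5 the highest. The log2 fold change, CVT against SPF, was 0.28 ± 0.31 (SE) with adjusted p = 0.869 by edgeR's quasi-likelihood test.

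Ccl4 had 11.8, 20.1, 16.4 and 18.8 CPM in SPF pools 1, 2, 7 and 8 and 14.9, 20.8, 28.6 and 12.2 in CVT pools 3, 4, 5 and 6. These overlapped, with CVT pool 5 highest, and the log2 fold change was 0.23 ± 0.25 (edgeR adjusted p = 0.872). Ccl9 had 179, 177, 184 and 198 CPM in SPF and 183, 217, 188 and 181 in CVT pools, with CVT pool 4 highest. Its log2 fold change was 0.11 ± 0.077 (edgeR adjusted p = 0.785). Ccl17 had 6.25, 6.09, 8.33 and 5.19 CPM in SPF and 6.41, 4.83, 6.73 and 5.65 in CVT pools. The groups overlapped, with a log2 fold change of -0.069 ± 0.16 (edgeR adjusted p = 0.939).

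**Figure D5:**
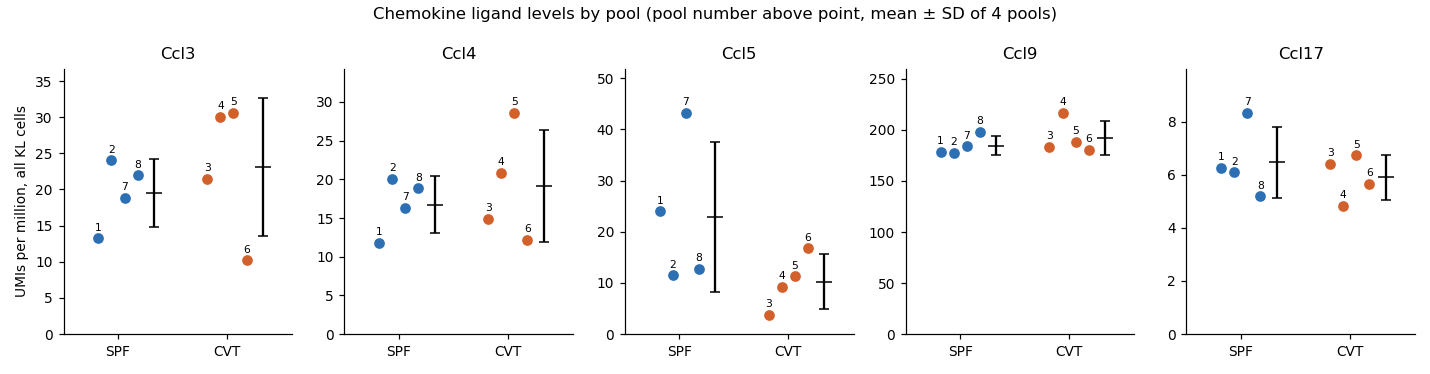
Level of each ligand in all KL cells of the 4 SPF and 4 CVT pools (CPM); points are pools with their numbers, and black marks with error bars are means and SD. SPF and CVT pools overlap for all 5 genes, and Ccl5 spreads from 3.79 to 43.3 CPM.

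In the class where each ligand was highest, none of the 4 passed the test. The log2 fold change was 0.18 ± 0.19 for Ccl3 in LMPP-like cells (edgeR adjusted p = 0.970), 0.28 ± 0.21 for Ccl4 in LTHSC-like cells (0.973), -0.061 ± 0.092 for Ccl9 in monocyte-like cells (0.953) and -0.41 ± 0.27 for Ccl17 in basophil and mast cell-like cells (0.878). The largest log2 fold change of a tested ligand in these 4 classes was that of Ccl4 in monocyte-like cells. It had 5.99, 16.3, 10.4 and 9.83 CPM in SPF pools 1, 2, 7 and 8 and 21.9, 31.5, 32.9 and 8.38 in CVT pools 3, 4, 5 and 6. All CVT pools except pool 6 were above every SPF pool. The log2 fold change was 1.15 ± 0.38, between 0.95 and 1.46 when each pool was left out, with an unadjusted p of 0.00980 and an edgeR adjusted p of 0.908. Few genes of any kind passed this test. It called 0 of 13092 genes (0%) in KL cells, where 392 were higher and 529 lower in CVT at an unadjusted p under 0.05; the alternative tool, DESeq2, called 28 higher and 2 lower. It called 0 of 10112 (0%) in LMPP-like cells (298 higher and 258 lower unadjusted; 1 and 1 by DESeq2), 0 of 6791 (0%) in LTHSC-like cells (225 and 131; 0 by DESeq2) and 0 of 9486 (0%) in monocyte-like cells (281 and 190; 0 by DESeq2). In basophil and mast cell-like cells it called 1 of 7000 (0.0143%), the neutrophil elastase gene Elane, with a log2 fold change of 1.25 ± 0.15 (edgeR adjusted p = 9.92e-05). The 0 calls among the 4 tested ligands are read against these shares of all genes, and say little about the ligands in particular.

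No difference in the share of cells with a UMI passed the test either. The CVT and SPF means were 12.8% ± 4.83 and 10.5% ± 2.16 for Ccl3, 11.5% ± 2.12 and 10.8% ± 1.75 for Ccl4, 48.9% ± 5.86 and 42.2% ± 4.48 for Ccl9, and 5.65% ± 0.573 and 5.78% ± 0.665 for Ccl17 (SD, n = 4 pools). The exact two-sided permutation p was 0.143 for Ccl9, 0.400 for Ccl3, 0.571 for Ccl4 and 0.800 for Ccl17, or 0.571, 0.762, 0.762 and 0.800 after adjustment over these 4 tests. The smallest p that 4 against 4 pools allow is 0.0286. At the thinned depth the Ccl9 means were 29.04% and 25.76% (exact permutation p = 0.143). Ccl5 had means of 2.72% in CVT and 2.77% in SPF pools.

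Pools 1 to 4 and pools 5 to 8 hold consecutively numbered mice and may be separate batches. In pools 1 to 4 the log2 fold change was 0.49 for Ccl3, 0.20 for Ccl4, 0.25 for Ccl9 and -0.056 for Ccl17, and in pools 5 to 8 it was 0.027, 0.24, -0.011 and -0.042. The effect of housing on Ccl9 differed between the sets by -0.28 on the log2 scale, with an unadjusted p of 0.0428 and an edgeR adjusted p of 0.537. No gene of the 13092 passed this test of the difference in edgeR (1188 at an unadjusted p under 0.05). For Ccl5 the log2 fold changes were -1.30 and -0.91.

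Immediate early genes, which respond within minutes to stimulation and to cell handling, varied among the pools. A list of 12 genes was summed: Fos, Fosb, Jun, Junb, Jund, Egr1, Ier2, Atf3, Dusp1, Zfp36, Hspa1a and Hspa1b. Of these, Hspa1a and Hspa1b are heat shock chaperone genes, so the immediate early sum is one of handling stress as well. It was 579, 825, 698 and 818 CPM in SPF pools 1, 2, 7 and 8. In CVT pools 3, 4, 5 and 6 it was 1011, 1307, 805 and 394. CVT pool 6, the lowest for Ccl3, was also the lowest for these genes. The correlation of this sum with the ligands was chosen after the data were seen, so its p-values do not stand as tests. Over the 8 pools Pearson's r of this sum with Ccl3 was 0.80 (permutation p = 0.0153, adjusted 0.0612 over the 4 tested ligands) and Spearman's rho was 0.69 (permutation p = 0.0694, adjusted 0.278). Without pools 4 and 6, the farthest from the median, r for Ccl3 was 0.53, so the relation rests on them. For Ccl9 r was 0.75 (permutation p = 0.0384, adjusted 0.0768) and 0.22 without those pools, with a rho of 0.40 (permutation p = 0.327). For Ccl4 r was 0.46 and rho 0.57 (permutation p = 0.248 and 0.151), and for Ccl17 r was -0.33 and rho -0.31 (permutation p = 0.422 and 0.462). For Ccl5, described with no test, r was -0.47, rho -0.81 and r without those pools -0.71. A set of 4 pools is too few to give the relation within either pool set.

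Cells of the same pool and class were compared as well. In LMPP-like cells, cells with a Ccl3 UMI had a higher immediate early sum than cells without one in 8 of 8 pools, with a median ratio of 1.38 (1.22 to 1.74). The median ratio was 1.38 for Ccl4 in the same class, also higher in 8 of 8 pools. It was 1.35 for Ccl3 in monocyte-like cells (8 of 8), 1.33 in MPP-like cells (7 of 8) and 1.21 for Ccl4 in LTHSC-like cells (7 of 8). For Ccl4 in monocyte-like cells it was 1.03 (0.832 to 1.42), higher in 5 of 8 pools. For Ccl9 the direction depended on the class: LMPP-like cells with Ccl9 had the lower sum in 8 of 8 pools (median ratio 0.82), and GMP-like cells with Ccl9 the higher in 8 of 8 (1.18). Genes of the NF-kB pathway and its targets gave ratios near 1 in LMPP-like cells, with a median of 0.996 for Ccl3 (higher in 3 of 8 pools) and 1.09 for Ccl4 (6 of 8). The part of handling in the Ccl3 and Ccl4 levels was not tested.

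Other genes of the chemokine system were examined as lists, beside a median log2 fold change of -0.012 over all genes. Of 16 other CC ligand genes, 9 had a UMI and 4 were tested, and 0 of 4 passed (median -0.11). Ccl6, a myeloid ligand, was the most abundant with 6615 UMIs and a log2 fold change of -0.78, followed by Ccl27a (4027) and Ccl25 (3359). Of 17 CXC, C and CX3C ligand genes 5 were tested and 0 passed (median 0.37). These were led by the platelet genes Pf4 (61006 UMIs, 0.37) and Ppbp (1554 UMIs, 2.51, edgeR adjusted p = 0.705). Of 23 chemokine receptor genes 11 were tested and 0 passed, with 10 of the 11 below 0 and a median of -0.28. Ccr2, the receptor of monocyte precursors, was the most abundant (11543 UMIs), followed by Cxcr4, which retains progenitors in marrow (6612), and Cx3cr1 (3770).

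Lists of other cells and states were read the same way, and 0 genes of each passed the edgeR test. The tested genes had a median log2 fold change of -0.0068 for NF-kB pathway and target genes (18 of 19 tested) and 0.27 for immediate early and heat shock genes (12 of 12, 11 above 0). In the latter list the heat shock genes Hspa1a and Hspa1b had the largest values, 2.21 and 1.36. The median was -0.99 for T and NK markers (7 of 11), -0.41 for dendritic markers (9 of 10) and -0.54 for macrophage markers (6 of 8). It was -0.26 for basophil and mast cell markers (9 of 11) and -0.51 for late granulocyte markers (11 of 11). The T and NK list moved in the same direction as Ccl5 in KL cells, and its part in the Ccl5 values beyond the split by cells given above was not tested.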

How the data were processed

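Single-cell RNA-seq (Chromium 3′ v2) was performed on KL cells in 8 pools. The authors deposited raw UMI counts per gene and cell, made with Cell Ranger (version not given in the sources used here; build mm9 in the submitters' processing notes). A cell's pool was read from its name suffix, and all 29891 cells were kept, with no doublet caller run and no doublets removed; 0 columns were unused. Cells were clustered with leidenalg 0.10.2 at resolution 2 without chemokine genes. UMIs were summed per pool and class, over pools with at least 20 cells, and CVT was compared with SPF by edgeR 4.0.16 (quasi-likelihood, TMM, adjusted p under 0.05 over all genes). DESeq2 1.42.0, RLE factors, no count filter, a pool set block, leaving out each pool or the top cells, a cell filter (at least 1000 genes, at most 10% mitochondrial; 29300 cells) and other clusterings were alternatives. The test was checked on simulated counts. Shares of cells were compared by exact permutation (scipy 1.17.1), and cells were thinned to 2759 UMIs. Intervals and floors cover counting error only. P-values measure the spread between pools of mice. The genes named are the 5 ligands, the 3 genes most like each and the 3 most abundant of the chemokine lists; Ccr4 and Ccl22 as receptor and neighbour, Elane as the sole call, and erythroid and leading genes were named after their values were seen. The ligands and lists were chosen with earlier results of these data known. The correlation with immediate early genes was also chosen after seeing the data. A receptor gene and a coding sequence are not reported here.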

Additional observations from a re-analysis of the deposited data

Results flagged for a closer look

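In 14 of 110 groups of 4 pools, 1 pool stood apart from the other 3, with a gap to its neighbour, as a share of the group's range, above Dixon's 95% critical value. Chance flags about 1 in 20 groups. Values are CPM, followed by that gap ratio.

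Ccl5 gave 6 of the 14, and in 5 of these a single cell supplied most of the UMIs. In LTHSC-like cells CVT pool 4 had 80.7 against 2.83 to 5.58 in the other CVT pools (ratio 0.965), with 28 of 28 UMIs in 1 cell, and SPF pool 1 had 10.3 against 1.99 to 2.23 (0.972), on 4 UMIs. In monocyte-like cells SPF pool 7 had 22.5 against 4.19 to 5.86 (0.909; 39 of 41 UMIs in 1 cell) and CVT pool 5 had 13.95 against 3.57 to 4.51 (0.909; 31 of 48). In late granulocyte-like cells CVT pool 6 had 26.8 against 0 to 2.22 (0.917; 64 of 73). In GMP-like cells SPF pool 8 had 5.63 against 1.92 to 2.30 (0.900; 28 of 40).

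Ccl4 gave 3. In late granulocyte-like cells SPF pool 8 had 15.9 against 2.17 to 3.13 (0.930; 9 of 34 UMIs in 1 cell) and CVT pool 5 had 16.7 against 4.78 to 5.69 (0.923; 24 of 45). In megakaryocyte-like cells CVT pool 5 had 13.8 against 6.55 to 7.34 (0.892; 5 of 50), so no single cell carried it.

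Ccl17 gave 4. SPF pool 7 was high both in erythroid MEP-like cells, with 22.2 against 7.16 to 9.08 (0.872; 80 UMIs, at most 3 in a cell), and in megakaryocyte-like cells, with 23.1 against 11.04 to 11.96 (0.924; 26 UMIs, at most 4 in a cell). CVT pool 6 had 3.35 against 0 in LTHSC-like cells (1; 3 UMIs) and 2.23 against 1.06 to 1.26 in MPP-like cells (0.833; 7 UMIs), both near the detection limit.

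Ccl9 gave 1, in LMPP-like cells, where CVT pool 4 had 356 against 234 to 244 (0.917). It rested on 1255 UMIs with at most 20 in a cell, and CVT pool 4 was also the highest pool for immediate early genes, whose part in this value was not tested.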

How the results depend on the processing

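Of the values recomputed under other settings, 255 were classed as unchanged, 10 as reversed and 6 as moved. For housing values of Ccl3, Ccl4, Ccl9 and Ccl17, unchanged meant the same direction and side of the threshold. For Ccl5 and for class levels it meant a change smaller than the SD between pools, whatever the sign. For counts it meant an equal or near count. The Ccl5 share difference, -0.044 points, thus counted as unchanged at 0.375 without CVT pool 3 and 0.214 without SPF pool 7. None of the reversed values was called. On the log2 scale, Ccl4 in KL cells was -0.019 and in LTHSC-like cells -0.060 without CVT pool 5, Ccl17 in KL cells was 0.011 without CVT pool 4 and 0.082 without SPF pool 7, and Ccl9 in monocyte-like cells was 0.024 without SPF pool 1. The difference in the share of cells, in percentage points, was -0.028 for Ccl4 without SPF pool 1 and -0.065 without CVT pool 4, and for Ccl17 0.188 when at least 2 UMIs were required, 0.066 without CVT pool 6 and 0.106 without SPF pool 7. Leaving out each pool gave log2 fold changes in KL cells of 0.11 to 0.52 for Ccl3, -0.019 to 0.39 for Ccl4, -1.43 to -0.56 for Ccl5, 0.037 to 0.15 for Ccl9 and -0.16 to 0.082 for Ccl17. In the highest class these were 0.053 to 0.39 for Ccl3, -0.060 to 0.47 for Ccl4, -0.11 to 0.024 for Ccl9 and -0.66 to -0.27 for Ccl17. For Ccl5 they were 1.05 to 1.80 in LMPP-like cells, its highest class only among those with at least 20 cells in every pool. The small T and NK-like group had far more Ccl5 (5083 CPM). Shares differed by 0.455 to 4.38 points for Ccl3, -0.0653 to 1.47 for Ccl4, -0.391 to 0.375 for Ccl5, 4.02 to 8.58 for Ccl9 and -0.419 to 0.106 for Ccl17. Ccl5 in LMPP-like cells was 0.50 with the cell filter and 0.82 without the top cell of each pool. Ccl9 in monocyte-like cells was 310 CPM at resolution 1 and 394 CPM with chemokine genes kept in the clustering, and 2 and 3 of the 5 ligands then kept their highest class; these classes hold other cells. DESeq2 called 30 genes in KL cells against 0 by edgeR. Without the filter on low counts edgeR called 44 genes in LMPP-like, 22 in LTHSC-like and 34 in basophil and mast cell-like cells, against 0, 0 and 1, and with a block for pool set 4 in KL, 3 in LMPP-like, 1 in LTHSC-like and 6 in basophil and mast cell-like cells; the cause was not tested. Ccl3, Ccl4, Ccl9 and Ccl17 were among none of these calls. Ccl5 is left out of this statement, because it was chosen on its housing difference and few cells carry its values. DESeq2 gave Ccl3, Ccl4 and Ccl17 no adjusted p in KL cells, so it could not call them there. It gave Ccl9 a DESeq2 adjusted p of 0.399. Ccl17 did not pass the count filter in LMPP-like cells, so the fit with a block could not call it there. No paired analysis was possible because the groups share no replicate numbers. Depth limits Ccl17 most, with 1998 UMIs in all.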
